A study of Mus musculus with 12 samples.

Results

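Transcripts of 10 Tudor-domain genes of the piRNA pathway were compared between Morc1 knockout (KO) and heterozygous (het) male germ cells of newborn mice. The genes were chosen by name: Tdrd1, Tdrd3, Tdrd5, Tdrd6, Tdrd7, Tdrd9, Tdrd12, Tdrkh, Rnf17 and Stk31. All 10 were among the 35666 genes of the gene table, matched through GENCODE M21 (GRCm38), and all 10 were among the 26005 genes abundant enough to be tested (a mean of at least 10 normalized counts). The cells were gonocytes, the prospermatogonia of the newborn testis, isolated at postnatal day 0 (P0) from mice with an Mvh-Venus transgene, in which regulatory sequence of Ddx4 (also called Mvh) drives a fluorescent protein in germ cells. Both genotypes carried this transgene. The het group was Morc1 (+/-) and so already had 1 mutant allele, the KO group was Morc1 (-/-), and each had 3 libraries. No wild-type group was included, and the labels do not say how the mutant allele was made, or whether a library came from 1 animal or several. Samples of postnatal day 3 were not analysed here.

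A Tudor domain is a small fold that binds methylated residues on other proteins. In the germline, PRMT5 and its cofactor WDR77 place symmetric dimethylarginine on the tails of PIWI proteins, and Tudor proteins bind these tails and gather PIWI proteins, helicases and nucleases into granules between the mitochondria. There, piRNAs are made that direct the silencing of transposable elements (TEs), and in mouse fetal gonocytes they guide DNA methylation of TE copies. MORC1 is a germ cell ATPase that acts in TE silencing in the same cells.

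The gene table held between 28363683 and 32816861 reads per library and the TE table between 1974504 and 3703419. Morc1 itself was 23.8% as high in KO as in het by group means (limma log2 fold change -2.03), with no overlap between the genotypes. All 10 germ cell markers, among them Ddx4 and Dazl, were detected in every library, and their summed normalized counts ran from 105940 to 151838 in het and from 108711 to 148914 in KO. Sertoli cell markers summed to between 17536 and 37259 in het and between 12581 and 18099 in KO, with 3 of 7 markers (Sox9, Amh, Clu) lower in every KO library than in every het library, as were 5.57% of all tested genes. Leydig cell markers summed to between 510 and 1079 in 5 libraries and to 24921 in het replicate 3. None of the listed markers of these cell types was at 0 in any library. In bulk RNA, fewer cells of a type and less RNA per cell cannot be told apart.

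None of the 10 Tudor-domain genes differed between the genotypes at an adjusted p under 0.05 (limma with Benjamini-Hochberg adjustment over all 26005 genes). Over all genes, 0.431% were called higher and 0.0423% lower in KO. Tdrkh was the only member at an unadjusted p under 0.05, where 6.86% of all tested genes lay. The edgeR and DESeq2 count tests also called 0 of the 10, each with 1 member at an unadjusted p under 0.05. Over all genes, edgeR called 121 higher and 8 lower in KO, and DESeq2 called 400 higher and 65 lower. The shares of all genes at an unadjusted p under 0.05 in these count tests are not given here. The estimated log2 fold change was positive for 7 members and negative for 3, with a median of 0.13 against -0.02 over all genes tested. The data bound the size of a difference unevenly: the narrowest interval was that of Tdrd5, from -0.59 to 0.24 on the log2 scale, and the widest was that of Tdrd1, from -0.86 to 0.62.

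**Figure D1:**
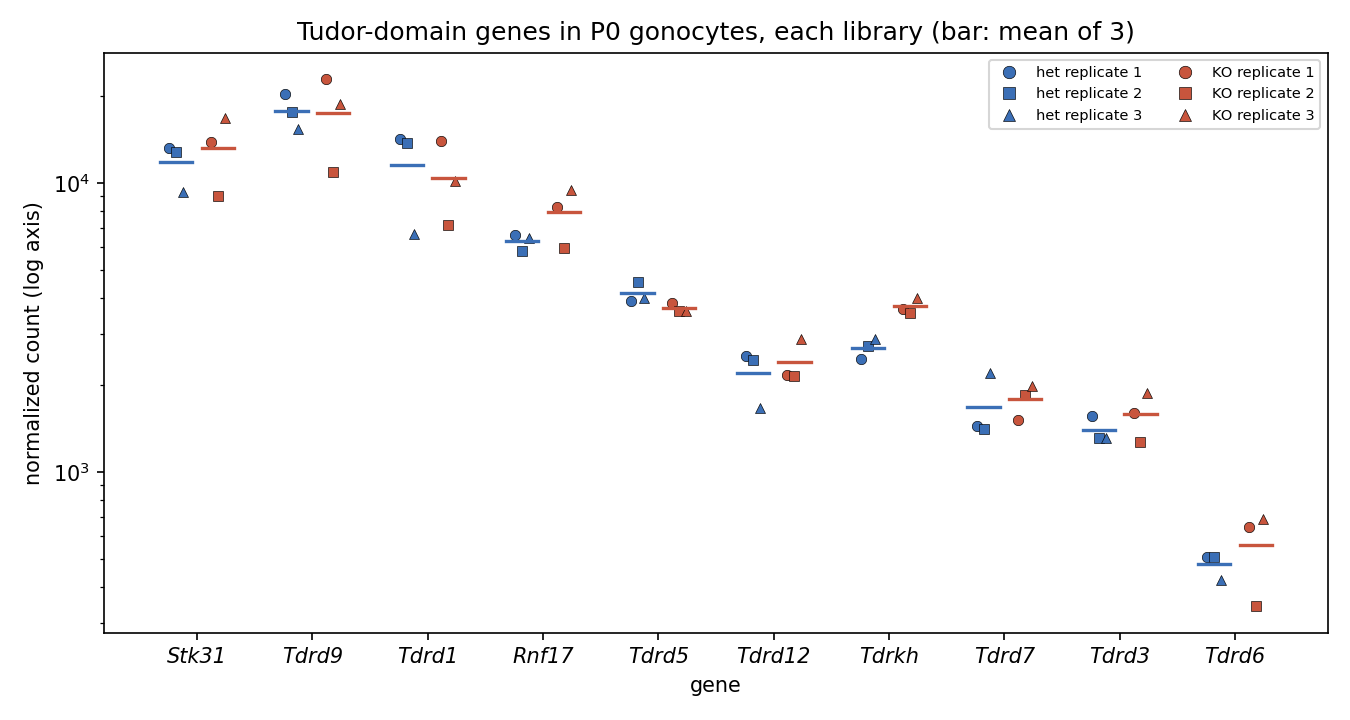
Normalized counts (log axis) of the 10 Tudor-domain genes in each of 3 het (blue) and 3 KO (red) libraries, with symbols for the replicate and bars at group means. The genotypes are apart only for Tdrkh (every KO library above every het library) and Tdrd5 (every KO library below, with KO replicate 1 at 3846 close to het replicate 1 at 3911).

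Levels of different genes were compared after division by the length of their merged annotated exons. Stk31, which encodes a Tudor protein with a kinase-like domain, had the highest level, 3633 ± 670 normalized counts per kb in het and 4074 ± 1201 in KO (SD, n = 3). Tdrd9, which encodes a helicase that works with the nuclear PIWI protein MIWI2, followed at 3278 ± 449 per kb in het and 3230 ± 1121 in KO. Tdrd1, whose product is a scaffold bound to the PIWI protein MILI, came next at 2117 ± 778 per kb in het and 1912 ± 622 in KO. These 3 genes lay above 98.7%, 98.4% and 96.9% of all tested genes in het level per kb. The het libraries of Stk31 and Tdrd9 overlapped in level per kb, whereas all of Tdrd9 lay above all of Tdrd1. Rnf17, which encodes a protein with a RING finger and Tudor domains, came after these at 1006 ± 65.4 per kb in het and 1266 ± 284 in KO.

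Next came Tdrd5 (599 ± 49.3 per kb in het, 530 ± 21 in KO), Tdrd12 (508 ± 107 in het, 553 ± 97.5 in KO), Tdrkh (438 ± 33.8 in het, 609 ± 37.7 in KO) and Tdrd7 (425 ± 111 in het, 450 ± 61.6 in KO). Neighbours in this stretch were not separated in level per kb by their het libraries. The lowest were Tdrd3 at 230 ± 23.0 per kb in het and 260 ± 49.2 in KO, and Tdrd6 at 67.9 ± 6.86 in het and 79.2 ± 26.7 in KO. Tdrd6, whose product has many Tudor domains and belongs to the chromatoid body of later germ cell stages, was near the middle of all tested genes in het level per kb (percentile 49.4), and Tdrd3 was at percentile 73.6. The 4 highest and 2 lowest members held the same rank in level per kb in all 6 libraries. Only the 4 middle genes changed places: Tdrkh was 7th in each het library and 5th, 5th and 6th in KO replicates 1 to 3. The order also depends in part on the length used, since with the longest annotated transcript in place of merged exons the het level of Tdrd9 (3691 per kb) passed that of Stk31 (3633), and Tdrd5 was at 1105.

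**Figure D2:**
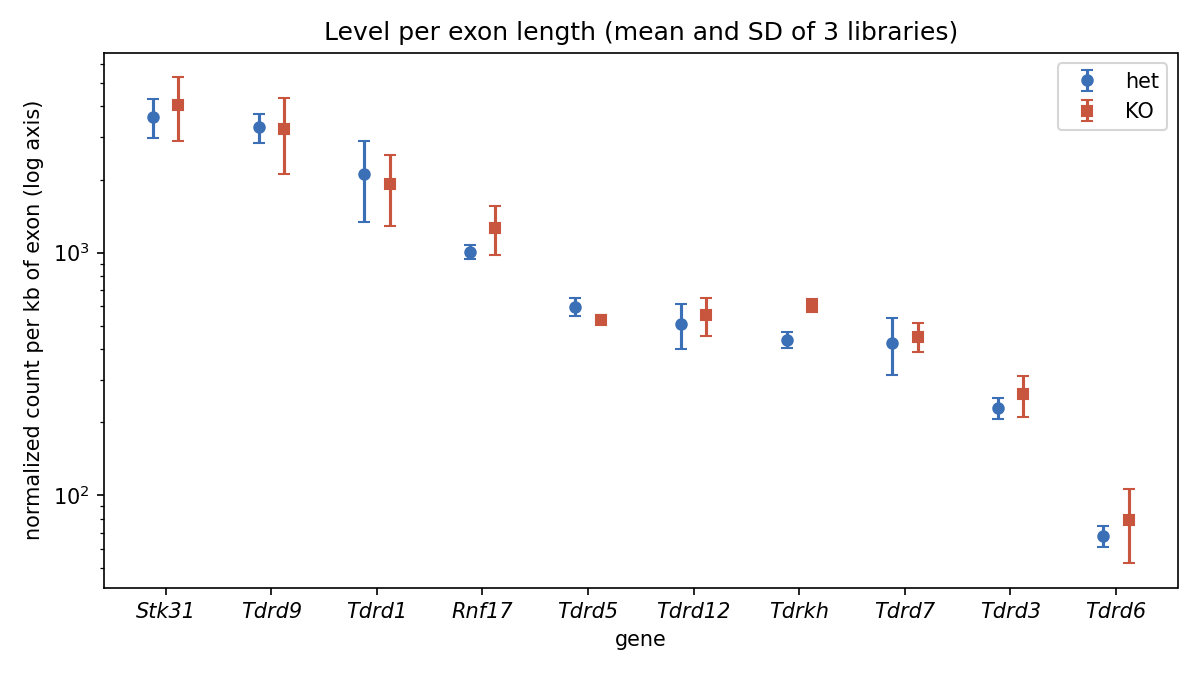
Level of each member as normalized counts per kb of exon (log axis), mean and SD of 3 libraries, het in blue circles and KO in red squares. Levels run from 3633 per kb for Stk31 to 67.9 for Tdrd6 in het, and the het and KO error bars overlap for each gene but Tdrkh, and narrowly so for Tdrd5.

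Promoter sequence was available in the RefSeq table (GRCm38.p6) for 8 of the 10 genes, all but Tdrd6 and Rnf17. The 250 bases before the start are given for the 3 genes with the highest levels per kb and for Tdrkh, the one member at an unadjusted p under 0.05. These were chosen after their values were seen, and no motif was named in advance. In the first 3, capitals mark CACGTG (a palindromic E-box). In Tdrkh, capitals mark the CCAAT box, here in its reverse complement ATTGG. Their positions are chr6:49395354-49395603 (Stk31), chr12:111971309-111971558 (Tdrd9), chr19:56825959-56826208 (Tdrd1) and chr3:94412994-94413243 (Tdrkh), all on the plus strand.
Stk31: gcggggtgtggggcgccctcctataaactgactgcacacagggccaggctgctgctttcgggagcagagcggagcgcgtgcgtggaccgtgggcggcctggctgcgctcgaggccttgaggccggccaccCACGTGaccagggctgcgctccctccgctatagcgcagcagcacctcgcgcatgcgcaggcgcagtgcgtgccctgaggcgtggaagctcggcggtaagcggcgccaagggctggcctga
Tdrd9: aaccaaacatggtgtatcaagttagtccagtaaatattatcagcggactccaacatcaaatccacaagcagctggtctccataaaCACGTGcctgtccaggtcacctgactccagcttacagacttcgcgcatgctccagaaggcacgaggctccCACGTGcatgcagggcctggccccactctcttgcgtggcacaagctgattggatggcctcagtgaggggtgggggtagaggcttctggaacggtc
Tdrd1: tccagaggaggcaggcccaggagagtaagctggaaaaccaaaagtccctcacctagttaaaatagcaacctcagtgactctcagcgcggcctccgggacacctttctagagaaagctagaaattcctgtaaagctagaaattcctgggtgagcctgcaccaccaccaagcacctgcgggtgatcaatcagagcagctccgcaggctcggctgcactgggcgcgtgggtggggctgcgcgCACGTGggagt
Tdrkh: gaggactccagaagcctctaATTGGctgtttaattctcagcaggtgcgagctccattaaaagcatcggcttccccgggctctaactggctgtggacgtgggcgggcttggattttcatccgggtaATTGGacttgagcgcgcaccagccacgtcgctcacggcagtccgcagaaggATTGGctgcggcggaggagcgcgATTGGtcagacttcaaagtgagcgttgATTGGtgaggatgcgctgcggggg

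For each of the 8 genes 1 window was read, though Tdrd1 and Tdrd7 had 3 windows and Stk31 and Tdrd12 had 2. The start used for Tdrd5 lay 316 bases from its GENCODE start. CACGTG was found in 3 of the 8 windows, namely those of Stk31, Tdrd9 and Tdrd1, and in 6.02% of 32851 promoter windows of the same length in the RefSeq table. Its centre lay 117 bases before the start in Stk31, 8 bases before it in Tdrd1, and 162 and 92 bases before it in Tdrd9, which has 2 copies. CCAAT, searched on both strands, was found in 2 of the 8 windows (33.8% of all windows), with 5 copies in Tdrkh and 1 in Tdrd9. AACNGNC, a loose form of the core bound by MYB factors such as MYBL1, was found on either strand in 6 of the 8 windows against 27.7% of all windows. The windows of Tdrd5 and Tdrd3 were the richest in CpG (40 and 32), and those of Tdrd12 and Tdrd7 the poorest (5 and 3), beside a median of 6 over all windows. The first 24 bases printed for Tdrd9 are part of a TE copy on the opposite strand, whose values are given with the other TE copies. A match describes these letters only, and enrichment was not tested.

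Tdrkh encodes a mitochondrial protein with KH and Tudor domains that holds PIWI proteins at the outer membrane while the exonuclease PNLDC1 trims piRNA precursors. Its normalized count was 2462, 2729 and 2871 across het replicates 1 to 3, and across KO replicates 1 to 3 it was 3667, 3555 and 4001. The lowest KO library was thus above the highest het library, a pattern shown by 7.17% of all tested genes. The KO mean of 3741 ± 232 (SD, n = 3) was 1.39 times the het mean of 2687 ± 208 (SD, n = 3), and the limma log2 fold change was 0.48 (SE 0.19, interval 0.05 to 0.90, adjusted p 0.645). An exact permutation test (two-sided) of the 3 against 3 libraries gave p = 0.1, the smallest it can give. Groups that are fully apart always get this value, so it adds nothing to the pattern above. The estimate stayed between 0.42 and 0.53 when any 1 library was left out. The number of members at an unadjusted p under 0.05 was less stable. It was 0 without het replicate 1, het replicate 2, KO replicate 1 or KO replicate 3. It was also 0 in limma without trend or with a block for the replicate number, and 2 without KO replicate 2. The shares of all tested genes in these fits were not computed.

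Tdrkh (plus strand of chromosome 3, 94413273 to 94434668, GRCm38) shares 2255 bp of exon, or 36.7% of its exonic length, with Oaz3, an antizyme gene on the opposite strand. Whether the authors' counting used strand is not given in the sources used here, so reads in the shared stretch may not be told apart. Oaz3 was listed at 122, 95.6 and 111 normalized counts in het and at 130, 76.5 and 175 in KO, and its groups overlapped (log2 fold change 0.14, limma adjusted p 0.971). The lincRNA gene 1700040D17Rik, which starts 354 bp away on the other strand, and Gm42463, which lies within Tdrkh, also had overlapping groups (log2 fold changes 0.28 and -0.16). Genes that lie within other members, such as Rd3l in Tdrd9, Gm18558 in Tdrd12 and Gm17060 in Stk31, share 0 bp of exon with them, and their groups overlapped. As a share of the summed counts of the 10 members, Tdrkh made up 4.58% ± 1.04 in het and 6.18% ± 1.41 in KO (SD, n = 3), and these shares overlapped between the genotypes.

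Rnf17 had the second largest estimate. It had 6600, 5821 and 6423 normalized counts in het and 8272, 5971 and 9462 in KO. KO replicate 2 lay within the het range while the other KO libraries lay above it, and the log2 fold change was 0.31 (SE 0.22, interval -0.17 to 0.79, limma adjusted p 0.875). It was 0.50 without KO replicate 2 (limma adjusted p 0.524) and 0.16 without KO replicate 3 (limma adjusted p 0.986).

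Tdrd5 and Tdrd7 encode proteins that pair Tudor domains with LOTUS domains, which bind RNA helicases of the DDX4 type. Tdrd5 had 3911, 4544 and 4005 normalized counts in het and 3846, 3589 and 3599 in KO. The KO libraries all lay below the het libraries, as for 5.57% of all tested genes, but the lowest het and the highest KO library differed by less than the het SD of 342. The KO mean was 88.6% of the het mean (log2 fold change -0.17, SE 0.19, limma adjusted p 0.924). The exact permutation test gave p = 0.1, as it must when the groups are fully apart. Tdrd5 shares 176 bp, or 2.54% of its exonic length, with 4930518J20Rik on the opposite strand, which was not analysed here. Tdrd7 had 1445, 1412 and 2191 normalized counts in het and 1510, 1849 and 1983 in KO. Its highest value was het replicate 3, and its KO libraries lay inside the het range (log2 fold change 0.10, SE 0.24, limma adjusted p 0.967).

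Tdrd1, Tdrd9 and Tdrd12 encode Tudor proteins tied directly to PIWI proteins, TDRD12 being a helicase-like partner in the loading of MIWI2. Tdrd1 had 14208, 13717 and 6636 normalized counts in het and 13902, 7143 and 10175 in KO. Its lowest libraries were one of each genotype, het replicate 3 and KO replicate 2, so that it spanned 2.14 times from lowest to highest while its log2 fold change was -0.12 (SE 0.33, limma adjusted p 0.973). Tdrd9 had 20250, 17602 and 15391 normalized counts in het and 22799, 10875 and 18800 in KO. Its lowest and its highest library were both KO (log2 fold change -0.08, SE 0.27, limma adjusted p 0.981). Tdrd12 had 2508, 2435 and 1667 normalized counts in het and 2162, 2145 and 2886 in KO, with het replicate 3 lowest and KO replicate 3 highest (log2 fold change 0.13, SE 0.24, limma adjusted p 0.955).

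Stk31 had 13217, 12795 and 9269 normalized counts in het and 13864, 9005 and 16693 in KO. As for Tdrd9, the extremes were both KO libraries, and the log2 fold change was 0.14 (SE 0.26, limma adjusted p 0.959). Tdrd6 had 506, 508 and 423 normalized counts in het and 645, 343 and 690 in KO, so that the KO libraries enclosed the het libraries (log2 fold change 0.16, SE 0.31, limma adjusted p 0.959). Tdrd3 is broadly expressed, and its product reads methylated histones and works with the topoisomerase TOP3B. It had 1555, 1314 and 1314 normalized counts in het and 1604, 1271 and 1868 in KO (log2 fold change 0.17, SE 0.23, limma adjusted p 0.939), and the groups overlapped.

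**Figure D3:**
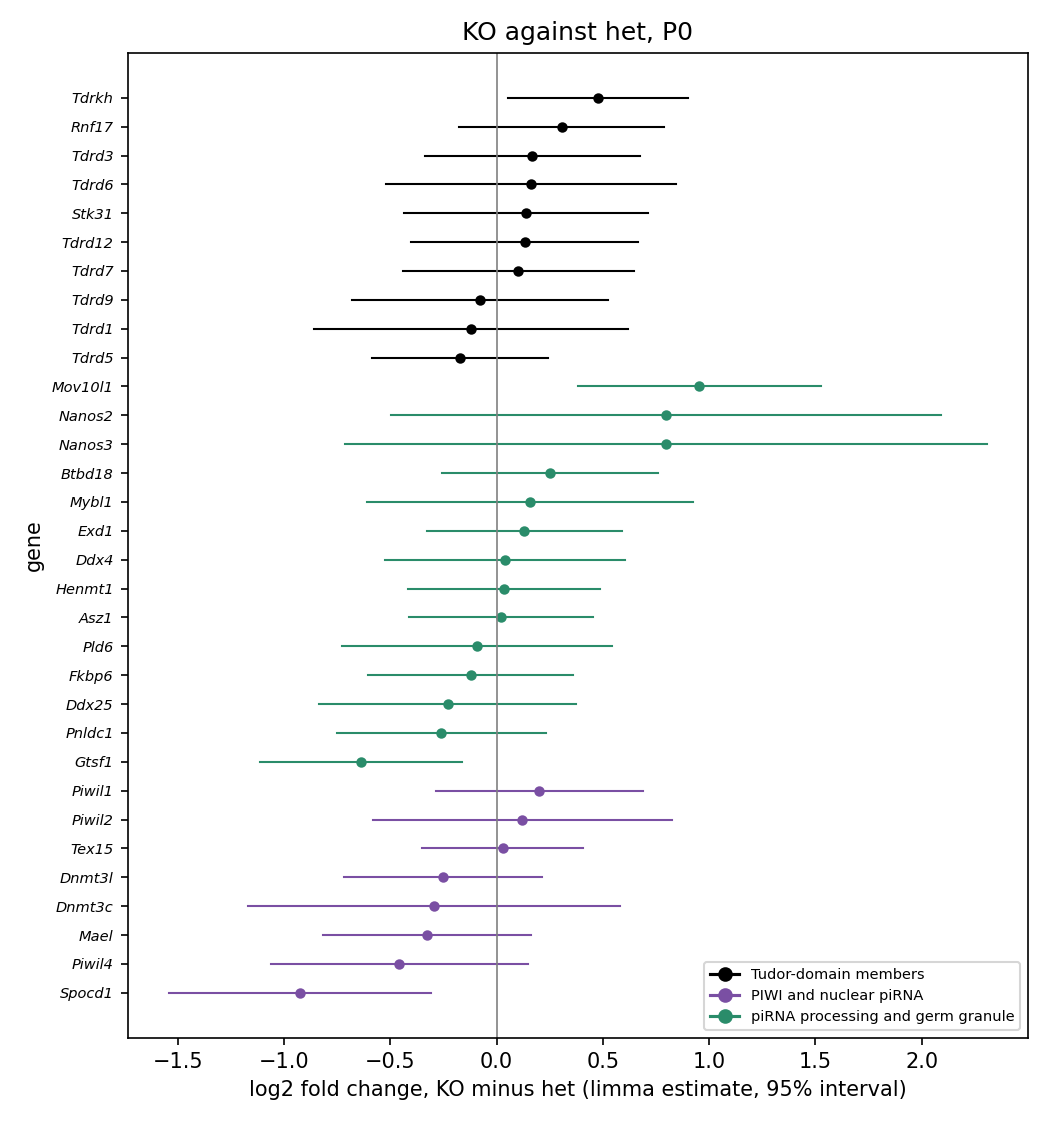
Log2 fold change, KO minus het, with its 95% interval (limma), for the 10 Tudor-domain genes (black), 14 genes of piRNA processing and the germ granule (green) and 8 PIWI and nuclear piRNA genes (purple). Among the Tudor-domain genes only the interval of Tdrkh (0.05 to 0.90) leaves out 0.

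The differences between libraries cut across genotype. KO replicate 2 was the lowest library for 5 members and KO replicate 3 the highest for 6. Relative to each gene's mean over the 6 libraries, 8 of 10 members were below it in het replicate 3 and 8 of 10 in KO replicate 2, against 3, 4, 3 and 2 in het replicates 1 and 2 and KO replicates 1 and 3. The summed counts of the 10 members reached 66662, 62877 and 50190 across het replicates, while KO replicates 1 to 3 reached 72271, 45746 and 70156, so the lowest sum of each genotype came from these same libraries. The exceptions were Tdrkh and Tdrd7, which were above their mean in KO replicate 2, and Tdrd5 and Tdrd7, which were above it in het replicate 3.

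The germ cell marker sum was also lowest in het replicate 3 (105940) and KO replicate 2 (108711). Most of that sum came from Dazl, Mael and Ddx4 (53829, 25715 and 20304 in KO replicate 2), and Mael and Ddx4 are also in the pathway lists. The markers did not move together: KO replicate 2 was the lowest library for Dppa3, Kit and Mael and the highest for Nanos2, Nanos3 and Zbtb16. Het replicate 3 was the library with the high Leydig sum, and it had the highest Sertoli sum (37259). KO replicate 2 had a Sertoli sum of 14562, but 2 genes of undifferentiated spermatogonia stood out in it: Zbtb16 at 1812 normalized counts against 159 to 563 in the other libraries, and Nanos3 at 488 against 56.6 to 94.7. These genes were singled out after their values were seen. The part of these cell type and library differences in the levels of the Tudor-domain genes was not tested. With both libraries excluded, an alternative added after the data were seen, 0 of 10 members were called, where 0.254% of all tested genes were called higher and 0.0385% lower. In that fit 2 members were at an unadjusted p under 0.05, beside 9.82% of all tested genes: Tdrkh (log2 fold change 0.56, limma adjusted p 0.384) and Rnf17 (0.51, limma adjusted p 0.425).

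**Figure D4:**
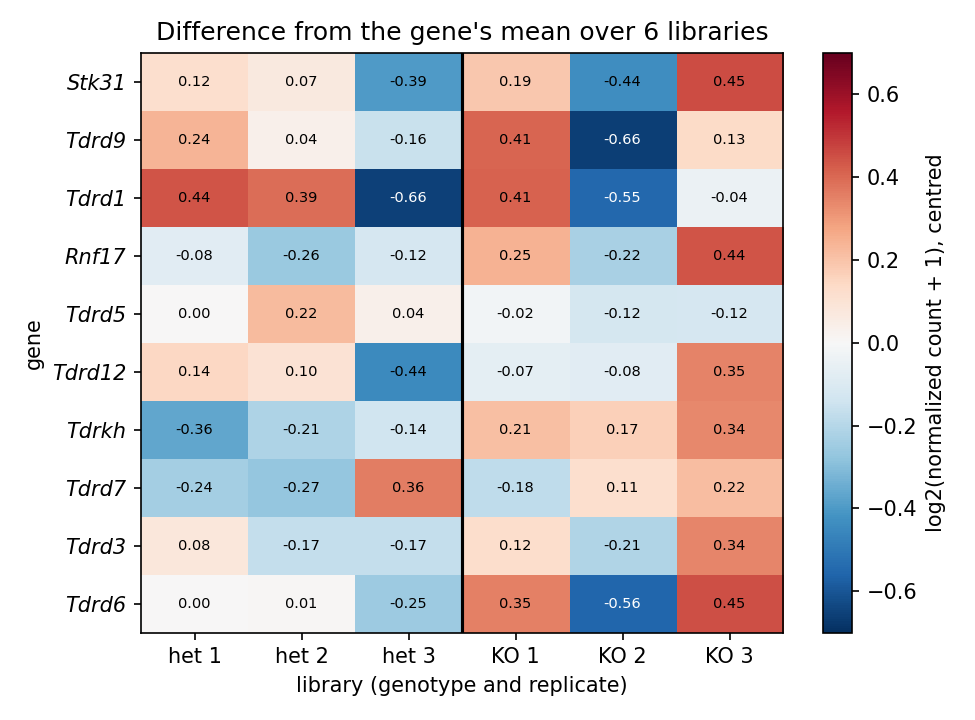
Log2(normalized count + 1) of each member minus its mean over the 6 libraries, in colour and as numbers, with a line between het and KO libraries. Het replicate 3 and KO replicate 2 are mostly blue (below the mean, 8 of 10 members each), and the row of Tdrkh changes from blue to red at the line.

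Other genes of the pathway were read from lists grouped by role. Of 8 PIWI and nuclear piRNA genes, 0 were called higher and 0 lower in KO, with a median log2 fold change of -0.27. At an unadjusted p under 0.05 (limma), where 6.86% of all tested genes lay, there was 1 gene. This gene was Spocd1, whose product links MIWI2 to DNA methylation, at 12403, 12184 and 12387 normalized counts in het and 9982, 4374 and 6255 in KO (log2 fold change -0.93, SE 0.28, limma adjusted p 0.347). Every KO library of Spocd1 lay below every het library, as for 5.57% of all tested genes. Piwil2, which encodes MILI, the partner of TDRD1, had a log2 fold change of 0.12 (limma adjusted p 0.970), and Piwil4, which encodes MIWI2, the partner of TDRD9, had -0.46 (limma adjusted p 0.837). Neither passed the test.

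Of 14 genes of piRNA processing and the germ granule, 0 were called in either direction, and the median log2 fold change was 0.04. At an unadjusted p under 0.05 (limma) there were 2 of the 14, beside 6.86% of all tested genes. Mov10l1, a helicase needed for primary piRNA production, had 12593, 12337 and 8582 normalized counts in het and 23526, 15170 and 27099 in KO (log2 fold change 0.95, SE 0.26, limma adjusted p 0.252). It was called by DESeq2 alone among the tools run (adjusted p 0.0397). Gtsf1, a zinc finger partner of PIWI proteins, had 7975, 7098 and 7054 in het and 4008, 4342 and 6077 in KO (log2 fold change -0.64, SE 0.21, limma adjusted p 0.467). The germ cell helicase gene Ddx4 had a log2 fold change of 0.04 (limma adjusted p 0.990). Mybl1, which encodes a MYB factor that drives many piRNA genes at meiosis, had 306, 387 and 723 normalized counts in het and 473, 402 and 624 in KO, with overlapping groups (log2 fold change 0.16).

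Genes of arginine methylation, both enzymes and cofactors, did not pass the test either. Of 8 such genes 0 were called, 0 were at an unadjusted p under 0.05, and their median log2 fold change was -0.03. Prmt5 had 4975, 5908 and 4868 normalized counts in het and 5720, 5018 and 7169 in KO, with overlapping groups (log2 fold change 0.17, SE 0.21, limma adjusted p 0.931). Its cofactor gene Wdr77 had 2084, 1958 and 1921 in het and 2714, 2555 and 2364 in KO (log2 fold change 0.35, SE 0.19, limma adjusted p 0.818). Each KO library of Wdr77 was above each het library, as for 7.17% of all tested genes. Wdr77 was singled out after its values were seen. Of the 22 listed Tudor-domain genes other than the members, 20 were in the gene table (Tdrd10 and Tdrd15 were not analysed here), 0 were called, 0 were at an unadjusted p under 0.05, and the median log2 fold change was -0.09.

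TE copies in and around the 10 genes were examined because TE transcripts are what this pathway acts on. Copies higher in KO made up 15.6% of the 49781 tested copies of the table and copies lower in KO 0.735%. Of 278 listed copies within a member or within 10 kb of one, 67 were abundant enough to test. Among these, 0 were called higher and 1 was called lower in KO (limma), with 4 at an unadjusted p under 0.05. Every called copy is also under that unadjusted threshold, so over all tested copies the share under it is at least the 15.6% called higher. The edgeR and DESeq2 counts were likewise 0 higher and 1 lower, but their shares over all tested copies are not given here. Position and length bear on the comparison: 54 of the 67 were intronic, and over all intronic copies 7.59% were called higher and 0.507% lower. By length, 1.42% of tested intronic copies of up to 500 bp were called higher, 4.72% of those longer than 500 and up to 5000 bp, and 52.3% of those over 5000 bp. Of the 54 intronic copies in members, 32, 21 and 1 fell in these classes. The median log2 fold change of the 67 copies was -0.45, against 0.03 over all tested copies and -0.16 over all tested intronic copies. Since the TE table was scaled on TE copies, which were themselves higher in KO in number of calls, the medians were recomputed with the size factors of the gene table and became -0.14, 0.38 and 0.15.

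The called copy lies in an intron of Tdrd9 on the opposite strand (chr12:112017388-112019671, 2284 bp). It had 61.2, 59.5 and 116 normalized counts in het, against 29.6, 22.4 and 12.8 in KO, from 307 reads in all, and the log2 fold change was -1.82 (SE 0.49, limma adjusted p 0.0248). The KO libraries were all lower than the het libraries. The call was lost with gene size factors (log2 fold change -1.50, adjusted p 0.0673), without a filter on low values (adjusted p 0.0650), without trend (adjusted p 0.0688) and when het replicate 1 (0.0522), het replicate 3 (0.0622), KO replicate 2 (0.0530) or KO replicate 3 (0.0764) was left out. Leaving out any 1 library gave log2 fold changes from -2.08 to -1.51. Without the filter a different copy was called lower, in an intron of Tdrd7 on the same strand (chr4:45971351-45971697, limma adjusted p 0.0133), with 10, 9 and 18 reads in het and 0 in each KO library, where a count of 0 allows up to 3 reads per library (counting error only). The counts of Tdrd9 itself overlapped between the genotypes.

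The other 3 copies at an unadjusted p under 0.05 also had negative estimates and were named after their values were seen. The TE copy that ends 227 bases before the start of Tdrd9 (chr12:111971190-111971332, opposite strand) had 41.1, 26.9 and 23.96 normalized counts in het and 22.9, 3.10 and 9.41 in KO (log2 fold change -1.62, limma adjusted p 0.169). A copy farther upstream of Tdrd9 (chr12:111970038-111970377) had 36.9, 32.5 and 23.0 in het and 20.0, 9.29 and 5.99 in KO (log2 fold change -1.45, limma adjusted p 0.147). A copy in an intron of Tdrd5 on the opposite strand (chr1:156289751-156290089) had 41.1, 35.9 and 34.5 in het and 17.2, 17.8 and 12.8 in KO (log2 fold change -1.18, limma adjusted p 0.135). In each of these copies, which were picked by a low p, the genotypes did not overlap. With the scaling of the TE table, 8 of the 67 tested copies had every KO library below every het library, and 0 had every KO library above. Over all tested copies these shares were 7.58% and 22.8%. They are not matched for position or length: most of the 67 were intronic copies of up to 5000 bp, which were called higher less often than all copies. Shares for such copies alone were not computed.

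The counts of all intronic copies were then summed within each gene. In Tdrd5, 14 copies summed to 141, 135 and 178 in het and 86.8, 86.7 and 54.7 in KO, a KO mean of 50.2% of the het mean. With gene size factors the groups of Tdrd5 nearly met, at 115.9 for het replicate 2 and 115.7 for KO replicate 2, and the KO mean was 63.2% of the het mean. In Tdrd1, 5 copies summed to 17.9, 26.9 and 36.4 in het and 5.72, 9.29 and 5.13 in KO. Its groups stayed apart with gene size factors. These sums rest on 17, 24 and 38 reads in het and 6, 12 and 6 in KO. In Tdrd9, 45 copies summed to 918, 683 and 731 in het and 593, 512 and 371 in KO, apart under TE scaling but overlapping under gene scaling. An exact permutation test (two-sided) gave p = 0.1 for each of the 3 sums under TE scaling, and p = 0.3 for Tdrd9 under gene scaling. In the other 7 genes the sums overlapped under both scalings. The same sums were made for the 14322 tested genes with intronic copies. Under TE scaling 11.7% of these genes had every KO library below every het library and 6.26% above, beside 3 and 0 of the 10 members. Under gene scaling the shares were 4.52% below and 9.47% above, beside 2 and 0 of the 10. The KO mean of the sum was the lower one in 9 of 10 members under TE scaling and in 6 of 10 under gene scaling.

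**Figure D5:**
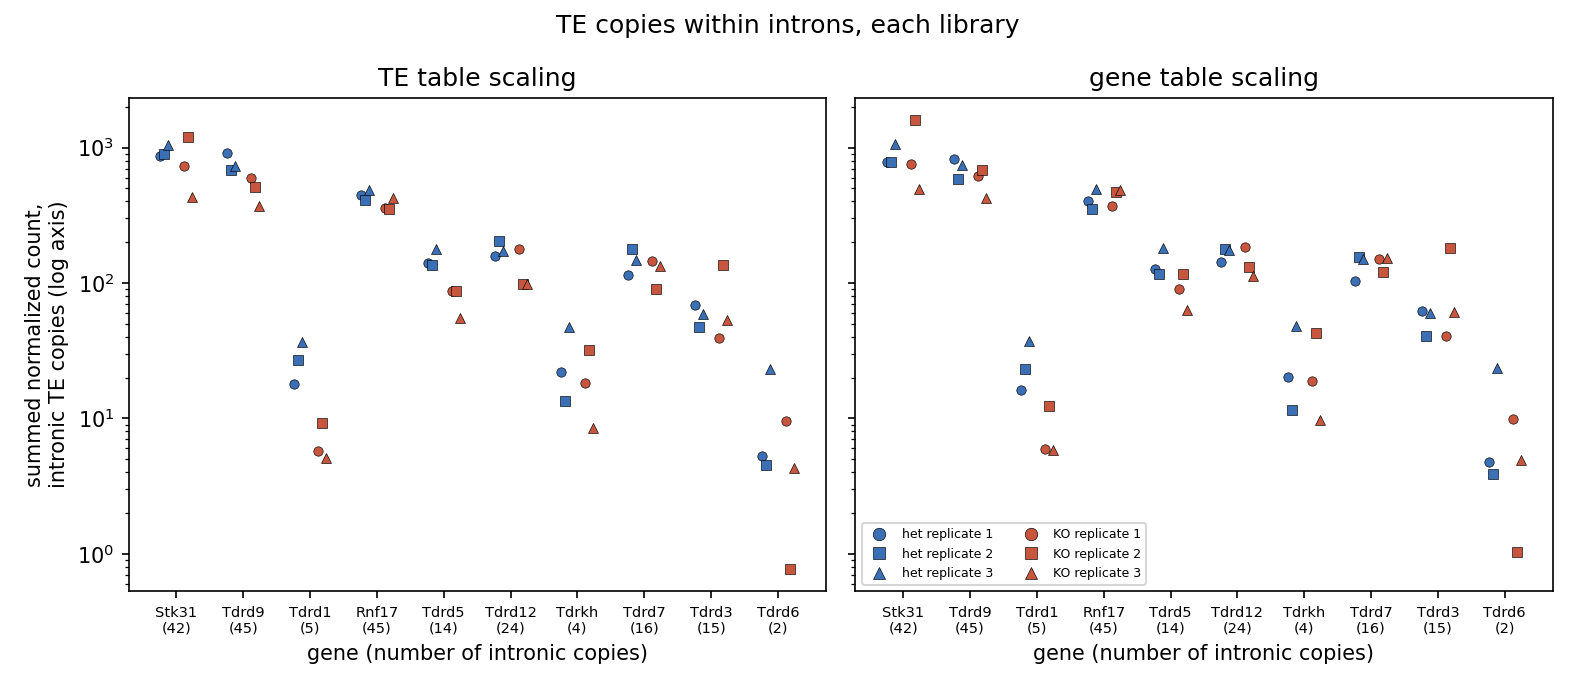
Summed normalized counts (log axis) of the TE copies within introns of each member, per library, scaled on TE copies (left) and on genes (right), with the number of copies in brackets. The KO libraries (red) lie below the het libraries (blue) for Tdrd1 and Tdrd5 in both panels and for Tdrd9 on the left only.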

How the data were processed

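RNA-seq values of 6 P0 libraries (3 het, 3 KO; replicate numbers from the sample titles) were used. Both deposited tables hold a signal: the authors divided read counts by a DESeq2 size factor of each library, which the deposited gene table's name states, and in each column 100% of values were whole multiples of one step, within 0.01 of a step. The submitters' processing notes name bcl2fastq 2.20, cutadapt 1.18, HISAT2 2.1.0, featureCounts 1.5.2, DESeq2 1.26.0 and mm10 (GRCm38). Strand, multi-mapped reads and the TE annotation are not given in the sources used here.

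Two-sided limma tests (version 3.58.1 in R 4.3.3; eBayes with a trend) compared log2(value + 1) of genes, and of TE copies, whose mean reached 10, with Benjamini-Hochberg adjustment over all features and calls at adjusted p under 0.05. Fold changes on this scale understate those of low features. Intervals are 95%. edgeR 4.0.16 and DESeq2 1.42.0 on recovered reads, other pseudocounts, filters and scalings, and each library left out were alternatives. On simulated counts the fits recovered the direction of changes but called few of the 2-fold ones. These counts had the same spread for all genes and no odd libraries, so they are simpler than the data. Replicates were listed as separate samples, but nothing says that they are separate animals, so p-values measure the spread between these libraries. Counts of het replicates 1 and 2 were the most alike (chi-square per gene 11.0 on average, where counting noise gives 1), followed by 23.9 for het replicate 2 and KO replicate 1, and 70.7 or more for other pairs of one genotype.

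Genes came from GENCODE M21 (35560 of 35666 matched). TE copies, assigned with bedtools 2.31.1, carry no build: over 6467 copies in exons the Spearman correlation of copy and gene level was 0.264, against 0.00499 after a shift of 10 kb, so GRCm38 was used. The 10 members, all lists and the rule for named genes (members, listed genes at an unadjusted p under 0.05, close partners by role, overlapping genes, called TE copies) were chosen with earlier results of these data known.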

Additional observations from a re-analysis of the deposited data

How the results depend on the processing

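The count of Tudor-domain members called was 0 under each of 16 alternatives, with a lowest adjusted p of 0.384 (Tdrkh, excluding both het replicate 3 and KO replicate 2). Morc1 itself lost its call in 4 of 15 alternatives. Its limma adjusted p was 0.0890 without trend, 0.0511 without het replicate 1, 0.101 without KO replicate 1 and 0.0663 without KO replicate 3. In those fits a count of 0 says little about the members. Of 160 member fold changes under alternatives, 12 changed sign. When 1 library was left out, log2 fold changes ran from -0.48 to 0.13 for Tdrd1, -0.021 to 0.48 for Tdrd6, -0.0081 to 0.31 for Tdrd7, -0.30 to 0.23 for Tdrd9, -0.058 to 0.24 for Tdrd12 and -0.056 to 0.39 for Stk31. With both libraries named above excluded, Tdrd9 had 0.13. The cause was not tested. Tdrd3, Tdrd5, Tdrkh and Rnf17 kept their sign under all 16.

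Over all genes, 112 were higher and 11 lower in KO. With a pseudocount of 0.1 these were 70 and 5, with a pseudocount of 10 there were 177 higher, without trend 3 lower, and with DESeq2 400 and 65. With 1 library left out they ran from 15 to 107 and from 1 to 7. The labels do not say whether the replicate numbers pair the samples. Deviations of same-numbered samples correlated at 0.138, -0.163 and -0.0438, which with 3 libraries per genotype cannot settle it. With the replicate block in limma 64 genes were higher and 5 lower, 0 of them members. Het replicate 3 correlated best with KO replicate 2 (0.206).

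TE copies called lower in or near members numbered 1. There were 0 without trend, with gene size factors and with the replicate block, 2 after quantile normalization, and from 0 to 1 with 1 library left out. The causes were not tested. All 10 members were deep enough to test, but only 67 of 278 TE copies near them.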
